A study of Homo sapiens with 6 samples.

Results

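PPRC1 encodes PRC, the third coactivator of the PGC-1 family, and was followed here together with 9 other genes that control the making of mitochondria. These are its relatives PPARGC1A and PPARGC1B, the DNA-binding factors NRF1, GABPA and ESRRA, and the mitochondrial transcription factors TFAM, TFB1M, TFB2M and POLRMT. The members are the probe sets that carry 1 of these names as their only gene symbol, with the brightest probe set standing for a gene. All 10 genes were found among the 18417 genes measured. PPRC1 was chosen by its intensity on 2 of the arrays, which was higher with 100 nmol/L of BAY 87-2243 than with solvent in hypoxia, so its value in that comparison is a description. The others were chosen as its relatives and partners.

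RNA came from H460, a human large cell lung cancer cell line, on Affymetrix Human Gene 1.0 ST arrays, which read a gene through probes spread over its exons. All cultures were kept for 16 h in medium with 0.5% fetal calf serum, under normoxia or under hypoxia at 1% oxygen. There were 6 arrays, 1 for each condition. Under normoxia cells received DMSO, the solvent, at 0.1% (the normoxic control), or 100 nmol/L of BAY 87-2243, an inhibitor of mitochondrial complex I that lowers HIF-1 activity. Under hypoxia cells received DMSO (the hypoxic control), 100 nmol/L, or 1 of 2 lower concentrations. The labels of these lower concentrations contradict each other: the title of one says 10 nM but its source name says 1 nM, and for the other the title says 1 nM but the source name 10 nM. Both go by their titles here, without ranking them by dose.

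With 1 array per condition there is no replicate check and no test. Differences are log2 ratios of intensity between 2 arrays, and a difference for hypoxia is that of the hypoxic from the normoxic control. A gene is counted when it differs by at least 2-fold. The arrays closest to each other were the normoxic and hypoxic ones that had received 100 nmol/L. There, 95% of genes brighter than the median gene lay within 1.27-fold and 95% of dimmer ones within 1.41-fold, which gives a yardstick for size but also contains any hypoxic effect that remained. The arrays report the RNA of a whole culture, so fewer expressing cells and less RNA per cell cannot be told apart. Median intensity over all probe sets was between 128 and 140. The epithelial keratins KRT8, KRT18 and KRT19 were at 7807 to 11774, whereas EPCAM and CDH1 were dimmer than the median gene, as were 4 of 5 markers of other cell types, COL1A1 being the exception. These 5 markers had log2 differences of 0.28 to 0.50 for hypoxia, and their part in the results was not tested. The hypoxic state was visible in 4 of 5 measured hypoxia check genes, which were at least 2-fold higher on the hypoxic control, for example ADM, the adrenomedullin precursor, at 479 in normoxia and 5686 in hypoxia.

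Mitochondria hold proteins of 2 genomes, and the nuclear one supplies everything that copies and reads mitochondrial DNA. The PGC-1 coactivators bind no DNA themselves. They dock on factors such as NRF-1, GABP and the estrogen-related receptor ERRα and raise transcription of nuclear genes for mitochondrial proteins. PGC-1α is known for its induction by cold, fasting and exercise, while PRC is known as a coactivator that follows serum and cell growth. Within the organelle the RNA polymerase POLRMT starts transcription with TFAM, which bends and packages the DNA, and TFB2M, which opens the promoter. TFB1M is mainly an rRNA methyltransferase of the small mitochondrial ribosomal subunit.

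The promoters are shown because the factors in this group are known to act on one another's genes. Sequences are from RefSeq (GRCh38.p14), 250 bases up to the annotated transcription start, 5′ to 3′ on the gene's strand. A promoter was matched for 9 of the 10 genes, NRF1 being the one not matched. The first 4 below belong to 4 of the 5 genes at least 1.5-fold lower on the hypoxic control, GABPA only by its brighter probe set. The last 2 belong to genes that shared motifs with them. Capitals mark exact matches, on either strand, to CGCATGCG, a form of the NRF-1 site, and to CGGAAG, a form of ETS sites such as that of GABPA. These strings are called the NRF-1 core and the ETS core here. Other forms of the sites were not searched.

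PPRC1, chr10:102132790-102133039, plus strand: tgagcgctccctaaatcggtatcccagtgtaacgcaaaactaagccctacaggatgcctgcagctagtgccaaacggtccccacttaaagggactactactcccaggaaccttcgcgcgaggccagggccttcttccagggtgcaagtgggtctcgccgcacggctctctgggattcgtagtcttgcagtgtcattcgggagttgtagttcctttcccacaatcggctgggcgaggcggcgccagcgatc
TFB2M, chr1:246566262-246566511, minus strand: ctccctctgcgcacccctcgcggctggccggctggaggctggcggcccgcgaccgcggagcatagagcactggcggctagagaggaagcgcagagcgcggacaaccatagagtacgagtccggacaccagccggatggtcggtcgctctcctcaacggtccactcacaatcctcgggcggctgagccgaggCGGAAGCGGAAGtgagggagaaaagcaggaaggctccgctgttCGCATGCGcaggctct
TFAM, chr10:58385160-58385409, plus strand: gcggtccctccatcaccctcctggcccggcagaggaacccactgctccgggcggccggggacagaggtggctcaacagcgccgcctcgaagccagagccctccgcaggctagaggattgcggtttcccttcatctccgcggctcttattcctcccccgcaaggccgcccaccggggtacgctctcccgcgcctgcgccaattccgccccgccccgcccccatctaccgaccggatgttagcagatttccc
GABPA, chr21:25734722-25734971, plus strand: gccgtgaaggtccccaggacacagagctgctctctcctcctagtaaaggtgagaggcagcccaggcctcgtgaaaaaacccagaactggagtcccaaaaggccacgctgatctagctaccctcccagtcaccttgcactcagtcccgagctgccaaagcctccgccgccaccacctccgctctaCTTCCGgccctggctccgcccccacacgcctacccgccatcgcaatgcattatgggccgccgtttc
TFB1M, chr6:155314485-155314734, minus strand: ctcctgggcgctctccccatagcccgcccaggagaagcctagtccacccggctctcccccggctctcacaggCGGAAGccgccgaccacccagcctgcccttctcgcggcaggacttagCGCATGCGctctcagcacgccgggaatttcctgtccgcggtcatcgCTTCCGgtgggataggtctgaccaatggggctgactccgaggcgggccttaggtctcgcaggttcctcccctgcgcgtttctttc
POLRMT, chr19:633538-633787, minus strand: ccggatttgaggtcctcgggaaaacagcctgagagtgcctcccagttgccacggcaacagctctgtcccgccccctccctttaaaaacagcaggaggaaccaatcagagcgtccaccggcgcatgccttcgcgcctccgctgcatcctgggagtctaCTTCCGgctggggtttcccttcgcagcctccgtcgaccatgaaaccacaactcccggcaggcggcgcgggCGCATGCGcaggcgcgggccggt

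The NRF-1 core was present in the windows of TFB2M, TFB1M and POLRMT, and in 1.73% of all 35116 promoter windows of this length. It ended 9 bases before the start of TFB2M, 124 before that of TFB1M and 16 before that of POLRMT. The ETS core lay in these 3 and in GABPA itself, against 16.5% of all windows, and TFB2M held 2 copies side by side. The windows of PPRC1 and TFAM held neither of these exact strings, which leaves other forms of the sites unsearched. Of the E-box CACGTG and the shorter ACGTG of hypoxia response elements, searched on both strands and overlapping each other, only the first of the 2 start sites of PPARGC1A held a match (6.34% and 18.5% of all windows). A match is a description of letters, and its absence says only that these letters are not in the window.

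PPRC1 was the member with the widest range over the arrays. Its intensity was 1015 on the normoxic control and 1016 in normoxia plus 100 nmol/L. In hypoxia it was 222 on the control, 260 on the array titled 10 nM, 632 on the array titled 1 nM and 797 with 100 nmol/L. The 2 normoxic arrays were the highest and differed by less than the yardstick, as did the 2 lowest. With 100 nmol/L in both, PPRC1 was 1.28-fold lower in hypoxia than in normoxia. That is just outside the yardstick, which is the spread of this same pair. Among brighter genes 109, itself included, were lower there by at least as much.

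Between the hypoxic and the normoxic control, PPRC1 was 4.57-fold lower, a log2 difference of -2.19, and 22 genes including PPRC1 were lower by at least as much. Between 100 nmol/L and DMSO in hypoxia its log2 difference was 1.84, or 3.58-fold, with 10 genes at least as far, itself included. Both differences use the hypoxic control, and the second is the value that chose the gene. The array titled 10 nM took no part in that choice, and there PPRC1 was also 3.91-fold lower than on the normoxic control (log2 difference -1.97). Relative to the array titled 10 nM, the difference at 100 nmol/L was 1.62. In normoxia, where the rule used no array, the log2 difference of PPRC1 between 100 nmol/L and DMSO was 0.00. With 100 nmol/L in both, hypoxia and normoxia differed by -0.35.

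**Figure D1:**
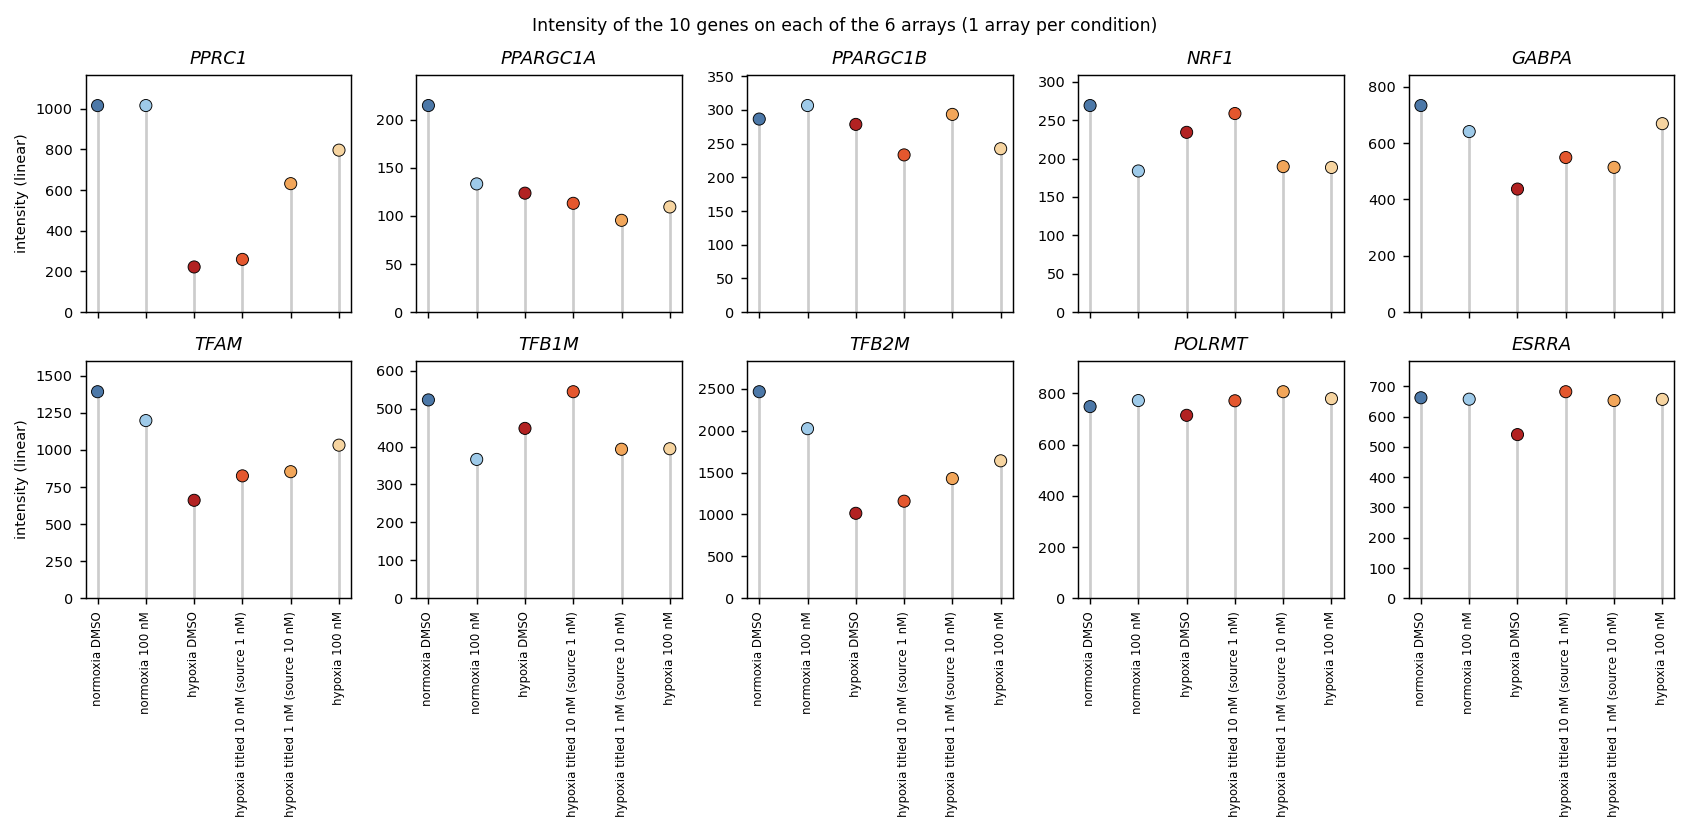
Intensity on a linear scale (vertical axis, from 0, its own range for each gene) of the 10 genes on each of the 6 arrays, 1 point per array and no error because there is 1 array per condition. PPRC1 is at 222 and 260 on the hypoxic control and the array titled 10 nM and between 632 and 1016 on the other 4, and TFB2M, TFAM and GABPA are lowest on the hypoxic control too.

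The other coactivators of the family did not follow PPRC1. PPARGC1A, which encodes PGC-1α, was at 215 on the normoxic control and 133 in normoxia plus 100 nmol/L. It was at 124 on the hypoxic control, 113 on the array titled 10 nM, 95.4 on the array titled 1 nM and 109 in hypoxia plus 100 nmol/L. It was thus highest on the normoxic control, by 1.61-fold over the next, and lay below the median gene of the array on all 6. Its log2 difference was -0.80 for hypoxia and -0.69 for 100 nmol/L in normoxia, 2 comparisons that share the normoxic control, and -0.18 for 100 nmol/L in hypoxia. PPARGC1B, encoding PGC-1β, lay between 233 on the array titled 10 nM and 306 in normoxia plus 100 nmol/L, a range of 1.31-fold. Its log2 difference was -0.04 for hypoxia and -0.20 for 100 nmol/L in hypoxia.

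Of the mitochondrial transcription factors, TFB2M and TFAM were lower in hypoxia. TFB2M was at 2463 on the normoxic control, 2023 in normoxia plus 100 nmol/L, 1014 on the hypoxic control, 1158 on the array titled 10 nM, 1428 on the array titled 1 nM and 1640 in hypoxia plus 100 nmol/L. Both normoxic arrays were above all 4 hypoxic ones. Its log2 difference was -1.28 for hypoxia and 0.69 for 100 nmol/L in hypoxia. TFAM was at 1392 and 1197 on the normoxic arrays with DMSO and 100 nmol/L, at 660 on the hypoxic control, 825 on the array titled 10 nM, 853 on the array titled 1 nM and 1032 in hypoxia plus 100 nmol/L. These values gave -1.08 for hypoxia and 0.64 for 100 nmol/L in hypoxia, so TFAM too stood above all hypoxic arrays in normoxia. On the array titled 10 nM, the log2 difference from the normoxic control was -1.09 for TFB2M and -0.75 for TFAM.

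POLRMT, the polymerase these factors work with, showed the narrowest range of the 10 genes. It lay between 715 on the hypoxic control and 807 on the array titled 1 nM, a 1.13-fold range that is inside the yardstick. TFB1M had its higher and lower values on other arrays than TFB2M. It was at 523 on the normoxic control, 448 on the hypoxic control and 544 on the array titled 10 nM, and at 366, 393 and 394 in normoxia plus 100 nmol/L, on the array titled 1 nM and in hypoxia plus 100 nmol/L. The gap between these sets, 448 against 394, was 1.14-fold and inside the yardstick. Its log2 difference at 100 nmol/L was -0.51 in normoxia and -0.18 in hypoxia, and -0.22 for the hypoxic control.

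Among the DNA-binding factors, NRF1, nuclear respiratory factor 1, split the arrays as TFB1M did, with higher values of 269, 234 and 259 and lower ones of 184, 189 and 188 on the same arrays. NRF1 is not the stress factor NRF2 encoded by NFE2L2. Its log2 difference at 100 nmol/L was -0.55 in normoxia and -0.31 in hypoxia. The gene was above the median gene of the array on 2 of the 6 arrays only, so it was measured close to the middle of the range.

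GABPA, the DNA-binding subunit of GABP (also called NRF-2), was at 733 on the normoxic control, 641 in normoxia plus 100 nmol/L, 437 on the hypoxic control, 549 on the array titled 10 nM, 514 on the array titled 1 nM and 669 in hypoxia plus 100 nmol/L. The log2 difference was -0.75 for hypoxia and 0.61 for 100 nmol/L in hypoxia. GABPA is the only member with 2 probe sets, and they did not move alike. The dimmer one was at 324, 416, 277, 308, 309 and 353 in the same order of arrays. With the mean of both, the hypoxic difference was -0.49, and that for 100 nmol/L in normoxia was 0.08 in place of -0.19. ESRRA, which encodes ERRα, was at 540 on the hypoxic control and between 653 and 682 on the other 5 arrays. This range of 1.26-fold is inside the yardstick. Its log2 difference was -0.29 for hypoxia and 0.28 for 100 nmol/L in hypoxia.

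**Figure D2:**
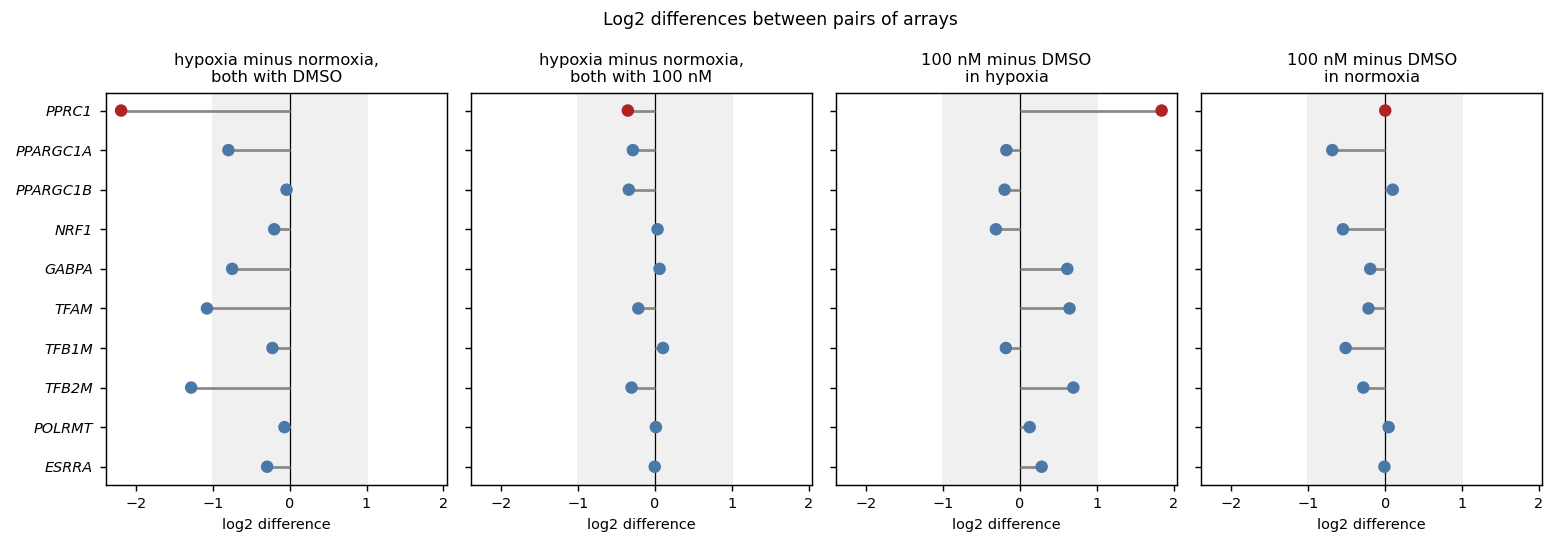
Log2 difference in intensity (horizontal axis) of each of the 10 genes in 4 comparisons of 2 arrays each; the grey band marks less than 2-fold, and no error is drawn because there is 1 array per condition. PPRC1 (red) is at -2.19 for the hypoxic control and at 1.84 for 100 nmol/L in hypoxia, while with 100 nmol/L in both hypoxia and normoxia all 10 genes lie between -0.35 and 0.11.

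Across the group, 3 of 10 genes were at least 2-fold lower on the hypoxic control (PPRC1, TFB2M and TFAM) and 0 were higher, beside 3.67% of all genes lower and 1.67% higher. All 10 differences were below 0, with a median of -0.52, where the median over all genes was 0.08 and over brighter genes -0.09. Without PPRC1, whose choice used the hypoxic control, 2 of 9 were at least 2-fold lower and the median was -0.29. The differences of PPARGC1B, POLRMT, NRF1, TFB1M and ESRRA were no larger than 1.22-fold. That is inside the yardstick, so their signs cannot be separated from its spread. When the array titled 10 nM replaced the hypoxic control, 2 were at least 2-fold lower than the normoxic control (PPRC1 and TFB2M), beside 1.85% of all genes, and 7 of 10 were below 0.

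With 100 nmol/L in hypoxia, PPRC1 was the 1 gene at least 2-fold higher, beside 0.766% of all genes, a count the rule itself fixed. At 1.5-fold TFB2M, TFAM and GABPA joined it, so 4 of 10 were higher beside 4.97% of all genes, and 0 were lower beside 5.7%. Without PPRC1, which the rule chose by this comparison, 3 of 9 were higher. For TFB2M, TFAM and GABPA the difference was 0.50, 0.32 and 0.29 against the array titled 10 nM, so 1.5-fold was not reached there by any of them. It was also not reached after quantile normalization by TFAM (0.53) and GABPA (0.54), or by GABPA with the mean of its probe sets (0.48) or with 32 added before log2 (0.58). At this threshold 5 of 10 were lower on the hypoxic control (4 of 9 without PPRC1), beside 11% of all genes. GABPA, 1 of them, did not reach 1.5-fold with the mean of its probe sets. On the array titled 10 nM its log2 difference from the normoxic control was -0.42, also short of 1.5-fold. In normoxia 0 of 10 genes differed by 2-fold with 100 nmol/L, beside 0.358% of all genes higher and 0.956% lower, and at 1.5-fold 1 was lower, PPARGC1A, beside 4.55%. When 100 nmol/L was present in both, hypoxia and normoxia differed by 2-fold in 0 of 10 genes, beside 0.147% higher and 0.0652% lower. On the array titled 1 nM, PPRC1 alone was 2-fold higher than the hypoxic control (log2 difference 1.51), beside 0.223% of all genes. On the array titled 10 nM 0 of 10 were, beside 0.0597%.

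Genes that surround this group were taken from 8 lists, chosen with earlier results of these arrays known. Of 141 listed genes 132 were measured. Transcripts of mitochondrial DNA, the product of POLRMT, were not analysed here, because 0 of 15 such genes looked for by name were among the genes measured. On the hypoxic control 20 of the 132 were at least 2-fold lower and 1 was higher, beside 3.67% and 1.67% of all genes. Their median log2 difference was -0.29, against 0.08 over all genes and -0.09 over brighter genes. With 100 nmol/L in hypoxia 0 of the 132 were 2-fold higher or lower, beside 0.766% of all genes higher and 1.01% lower. Their median there was 0.24, against -0.04 over all genes and 0.08 over brighter genes. The counts of single lists that follow are to be read beside the shares of all genes in the same comparison. The share of all genes above or below 0 was not counted. Counts of signs are therefore a description, to be read beside the medians over all and brighter genes. At 1.5-fold 23 were higher with 100 nmol/L in hypoxia and 3 lower, beside the same 4.97% and 5.7%. Against the array titled 10 nM that count of 23 was 6, beside 2.02% of all genes. Differences for hypoxia and for 100 nmol/L in hypoxia both use the hypoxic control, so opposite signs in them are not independent. Against the array titled 10 nM the median for 100 nmol/L in hypoxia was 0.26 for RNA processing and 0.19 for DNA maintenance. It was 0.30 for transcription elongation and termination, 0.18 for import and 0.01 over brighter genes.

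Of 30 genes of mitochondrial RNA processing and modification 9 were at least 2-fold lower in hypoxia, all 30 were below 0, and the median was -0.57, while 28 of 30 were above 0 with 100 nmol/L in hypoxia (median 0.44). FASTKD2, an RNA-binding protein of mitochondria, was at 755 in normoxia and 426 on the hypoxic control and at 814 in hypoxia plus 100 nmol/L. The tRNA methyltransferase TRMT5 was at 940, 405 and 756 there. FASTKD1 was at 551, 144 and 259.

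Of 17 genes of mitochondrial DNA replication and maintenance 3 were 2-fold lower in hypoxia (median -0.41). TWNK, the Twinkle helicase of the replication fork, was at 643 in normoxia and 147 on the hypoxic control, a log2 difference of -2.13. It was at 183 on the array titled 10 nM, 219 on the array titled 1 nM and 240 in hypoxia plus 100 nmol/L, and at 460 in normoxia plus 100 nmol/L. With 100 nmol/L in both, its log2 difference between hypoxia and normoxia was -0.94, the lowest such value among the 132 genes. RNASEH1, which removes RNA from RNA:DNA hybrids, was at 1401, 589 and 1018 on the normoxic control, the hypoxic control and hypoxia plus 100 nmol/L, and LIG3, the DNA ligase of mitochondria, at 1750, 1314 and 2069.

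All 5 genes of mitochondrial transcription elongation and termination were below 0 in hypoxia (median -0.66, 1 of them 2-fold lower) and above 0 with 100 nmol/L in hypoxia (median 0.54). TEFM, the elongation factor of POLRMT, was dim, at 239 in normoxia, 148 on the hypoxic control and 281 with 100 nmol/L. MTERF1 was at 255, 161 and 237 and MTERF4 at 250, 168 and 244. Of 24 genes of mitochondrial protein import 5 were 2-fold lower in hypoxia (median -0.40), and 23 were above 0 with 100 nmol/L in hypoxia (median 0.33). The small intermembrane space chaperone TIMM8A was at 1045, 436 and 756, its relatives TIMM8B at 1502, 817 and 1340 and TIMM9 at 759, 369 and 591.

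Of 15 measured classic nuclear respiratory factor targets, among them cytochrome c and subunits of respiratory complexes, 0 differed by 2-fold in hypoxia or with 100 nmol/L in hypoxia. The medians were 0.01 and 0.03. Of all genes 3.67% were lower and 1.67% higher in hypoxia, and 1.01% lower and 0.766% higher with 100 nmol/L in hypoxia. At such shares a count of 0 in 15 is not a result about these targets. The largest differences with 100 nmol/L in hypoxia were -0.39 for the muscle transcription factor MEF2A, 0.36 for COX7C and 0.27 for UQCRH. Of 8 genes of mitochondrial fusion and fission 5 were below 0 and 3 above 0 in hypoxia, and 7 were above 0 with 100 nmol/L in hypoxia. Of them 1 was 2-fold lower in hypoxia, the fission adaptor MIEF1, at 993 in normoxia, 422 on the hypoxic control and 659 with 100 nmol/L. The fusion genes OPA1 and MFN1 had log2 differences of -0.52 and -0.66 for hypoxia and 0.51 and 0.49 for 100 nmol/L in hypoxia. MIEF2, the paralog of MIEF1, had the opposite signs, 0.74 for hypoxia and -0.35 for 100 nmol/L in hypoxia, and was named after its values were seen.

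Partners and regulators of the coactivators were mixed in direction. Of 16 partners 0 passed 2-fold in either comparison. Beside the same shares of all genes as for the respiratory factor targets, this count is not a result about the partners. The thyroid hormone receptor gene THRA and RXRA, the retinoid X receptor, had log2 differences of 0.57 and 0.55 for hypoxia and -0.63 and -0.59 for 100 nmol/L in hypoxia. GABPB1, which carries the activation domain of GABP, had the opposite signs (-0.73 and 0.41), as GABPA did. HCFC1, a cofactor known to bind PRC, was at 2997 in normoxia and 2399 on the hypoxic control and at 2990 in hypoxia plus 100 nmol/L. Of 17 upstream regulators 1 was 2-fold higher in hypoxia, PRKAB2, a regulatory subunit of AMP-activated kinase, at 1391, 2878 and 1521. NRIP1, which encodes the corepressor RIP140, was 2-fold lower, at 1045 and 466 with DMSO, and stayed at 374 in normoxia and 411 in hypoxia plus 100 nmol/L; it was named after its values were seen. MYBBP1A, a nucleolar protein that binds PGC-1α, was at 1090, 702 and 1187, and the acetyltransferase KAT2A at 1477, 1556 and 2358. In normoxia plus 100 nmol/L KAT2A was at 2450, so its log2 difference at 100 nmol/L was 0.73 in normoxia and 0.60 in hypoxia. MYC, known to drive PPRC1 in growing cells, was at 5878 in normoxia and 4964 on the hypoxic control and at 6813 in hypoxia plus 100 nmol/L, and the deacetylase SIRT1 at 780, 636 and 842.

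The pattern of PPRC1 over the 6 arrays was most like that of SLC5A6, NDUFAF4, NOL6, RRP9, CCNJ, PIGW, MTRR and MPV17L2, with Pearson r from 0.990 to 0.997 over 6 arrays among 979 genes above the median gene that ranged by at least 2-fold. SLC5A6 transports biotin and pantothenate, NDUFAF4 assembles complex I, NOL6 and RRP9 act in the making of ribosomes, MTRR keeps methionine synthase active, and MPV17L2 acts in the mitochondrial ribosome. The measure takes the shape and not the size of a change. SLC5A6 ranged by 1.37 and NDUFAF4 by 1.32 on the log2 scale, against 2.19 for PPRC1. PIGW, an enzyme of the GPI anchor, had the wider range of 2.73, from 173 on the hypoxic control to 1146 in normoxia. By Euclidean distance, which takes size too, 2 of these 8 genes, PIGW and NOL6, stayed among the nearest 8. The others nearest by distance were CDC25A, GPATCH4, RRS1, MAK16, NOP16 and URB2, so the neighbours depend on the measure. Within the group r with PPRC1 was 0.94 for TFB2M, 0.90 for TFAM and 0.83 for GABPA, and from -0.43 to 0.54 for the other 6. Of the 979 genes the one ranked 100 by r had 0.944, higher than any of these, so such values were common. The points share 6 arrays, so these values describe them only.

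**Figure D3:**
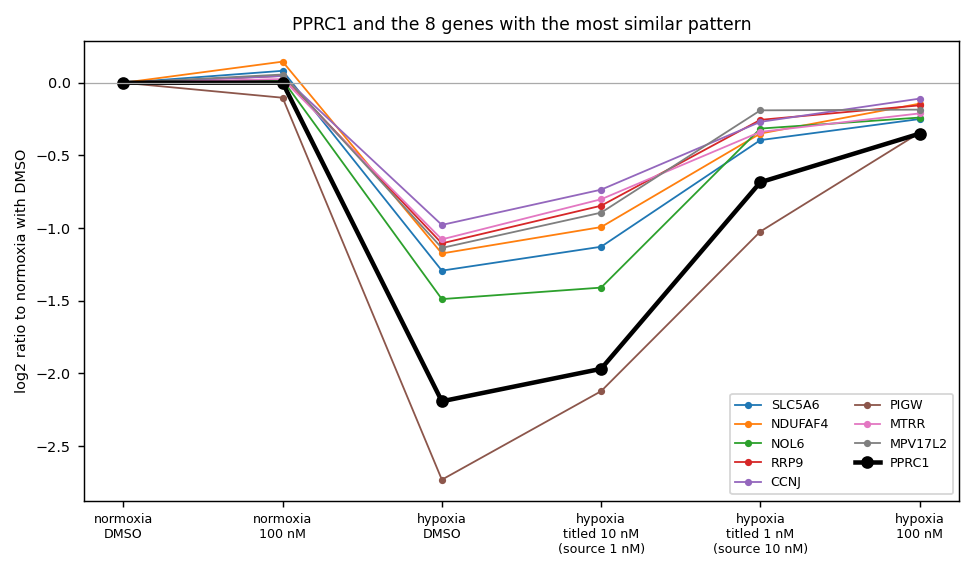
Log2 ratio of intensity to the normoxic control (vertical axis) on each of the 6 arrays for PPRC1 (thick black) and the 8 genes with the highest Pearson r to it; points are single arrays and the lines only join them. The 9 genes are lowest on the hypoxic control, PPRC1 at -2.19 and PIGW lower still, and all lie nearer 0 at 100 nmol/L in hypoxia.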

How the data were processed

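Intensity on a linear scale, 1 value for each of 33297 probe sets, was deposited by the authors as 1 table of 6 Affymetrix Human Gene 1.0 ST arrays. Background correction with Microarray Analysis Suite and the Expressionist software stand in the methods, whereas RMA, unversioned, is listed in the submitters' processing notes; which of them made the values is unsettled. The probe set build is not given in the sources used here. From these values log2 was taken without pseudocount or filter. Names came from the platform annotation, updated through Entrez identifiers to RefSeq (GRCh38.p14): 19460 probe sets had 1 symbol, 1754 several and 12083 none listed. The brightest probe set by mean log2 stood for each of 18417 genes. No test was possible on single arrays, and their number limits precision. The genes named are the 10 members, up to 3 of each list with the largest difference at 100 nmol/L in hypoxia whose brighter array reached the median gene, the 8 genes most like PPRC1, markers of hypoxia and cell type, and MYC, HCFC1 and SIRT1. NRIP1, MIEF2, MRM2, PRIMPOL, FASTKD3, TIMM23 and TRMT10C lie outside this rule and were named after their values were seen. Members and lists were chosen with earlier results of these data known. The counting and ranking steps were tested on simulated data. Alternatives were quantile normalization, median centring, 32 added before log2, the mean of probe sets, brighter genes only, thresholds of 1.5-fold and 3-fold, and use of the array titled 10 nM as the hypoxic control. Python 3.11.15, numpy 2.4.6, pandas 2.3.3 and matplotlib 3.10.9 were used.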

Additional observations from a re-analysis of the deposited data

Results flagged for a closer look

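In 3 genes the difference between 100 nmol/L and DMSO was above 0 in hypoxia and below 0 in normoxia, both by more than the SD of the closest pair of arrays (0.18 on the log2 scale for brighter genes). The difference between the 2 was not tested, since each rests on 1 pair of arrays. All 3 normoxic differences are smaller than the 1.27-fold within which 95% of brighter genes lay in that pair (1.22-fold for TFB2M, 1.16-fold for TFAM and 1.14-fold for GABPA), so their sign cannot be separated from its spread. It was 0.98 for TFB2M (0.69 in hypoxia and -0.28 in normoxia), 0.86 for TFAM (0.64 and -0.22) and 0.81 for GABPA (0.61 and -0.19). For GABPA the normoxic difference was 0.08 with the mean of its 2 probe sets, so the opposite signs were lost there.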

How the results depend on the processing

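Every alternative below was planned, and none turned the direction of a gene that differed by 2-fold. The difference of PPRC1 was between 1.70 and 1.93 for 100 nmol/L in hypoxia and between -2.31 and -2.04 for hypoxia under quantile normalization, median centring, 32 added before log2 and the mean of probe sets. When the array titled 10 nM replaced the hypoxic control it was 1.62 in place of 1.84 for 100 nmol/L in hypoxia and -1.97 in place of -2.19 for hypoxia. Among the other 9 genes the sign was kept in 13 of 18 values with that array, 51 of 54 after quantile normalization, 52 of 54 with the mean of probe sets, and in all with median centring (largest shift 0.12), 32 added or brighter genes only. Counts of the 10 genes changed with the threshold: at 1.5-fold 4 were higher with 100 nmol/L in hypoxia, 5 lower in hypoxia and 1 lower with 100 nmol/L in normoxia, and at 3-fold 1 was lower in hypoxia and 0 higher on the array titled 1 nM. Of the 132 list genes, those 2-fold higher with 100 nmol/L in hypoxia were 1 after quantile normalization, 3 with median centring and 23 at 1.5-fold, and those lower were 1 after quantile normalization and 3 at 1.5-fold. On the hypoxic control 36 were lower at 1.5-fold, 2 at 3-fold and 10 with the array titled 10 nM, while 2 were higher at 1.5-fold, 0 at 3-fold and 0 with median centring. Their median was 0.11 for 100 nmol/L in hypoxia against the array titled 10 nM, and median centring gave -0.41 for hypoxia. The cause of these shifts was not tested. No paired analysis was possible because there is 1 array per condition. Arrays were single, so differences near 1.3-fold in brighter and 1.4-fold in dimmer genes cannot be separated from the spread of the closest pair.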

Other observations

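The 20 list genes that were at least 2-fold lower in hypoxia differed widely in their values for 100 nmol/L in normoxia, a comparison that shares the normoxic control with the first. The genes given here were named after their values were seen, some from each end of that range. MRM2, a methyltransferase of mitochondrial rRNA, was at 1405 on the normoxic control, 722 in normoxia plus 100 nmol/L, 477 on the hypoxic control and 731 in hypoxia plus 100 nmol/L. PRIMPOL, a primase and polymerase, was at 261, 147, 109 and 158 there, and FASTKD3 at 414, 232, 186 and 243. Their log2 difference for 100 nmol/L in normoxia was -0.96 for MRM2, -0.83 for PRIMPOL and -0.84 for FASTKD3. At the other end it was -0.05 for TIMM23, -0.08 for TIMM9, -0.10 for TIMM8A and -0.16 for TRMT10C, with differences for hypoxia of -1.35, -1.04, -1.26 and -1.21.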
